A study of Mus musculus with 57 samples.

Results

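Single mouse T helper 2 (Th2) cells that held the interleukin-9 transcript were compared with Th2 cells of the same series in which Il9 was listed at 0. The cells were selected on their Il9 level alone. A cell counted as an Il9 cell at 10 TPM or more (an abundance scaled to the same total of transcripts in every cell), which gave 9 Il9 cells and 42 cells without Il9. Il9 itself is therefore described and not compared. The other 3 of the 54 cells kept had Il9 between these values, and 2 of the 56 sequenced cells, T3_2 and T3_5, were left out by the same rule (3096 and 8396 genes detected, the second above the range of the cells kept). All cells came from spleen CD4+ T cells of wild type C57BL/6 mice aged 8 weeks. They were cultured for 5 days with IL-4 and an antibody against interferon gamma, with IL-2 added after 2 days, and were then restimulated through CD3 and CD28. Each cell was captured on a Fluidigm C1 chip, made into 1 library, and carries the number of 1 of 5 sets, T1 to T5. The labels name no separate animals or cultures, so all cells count as 1 sample. Differences between the groups are given without a test and describe these cells only.

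Interleukin-9 is a cytokine of the common gamma chain family. It acts on mast cells, airway and gut epithelium and other lymphocytes, and is known from allergic inflammation and from the expulsion of worms. T cells make it under IL-4 together with TGF-beta, in the state named Th9, and a part of Th2 cells makes it too. STAT6, GATA3, IRF4, the AP-1 family member BATF and the ETS family member PU.1 are known activators of Il9.

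Il9 lies on the minus strand of mouse chromosome 13. The RefSeq sequence of the 250 bases before its start, chr13:56482258-56482507 in GRCm38.p6, is shown because the cells were divided by the transcript made from it. Capitals mark the AP-1 letters TGACTCA, at bases -140 to -134 from the start, and the letters TTCTGAGGAA, which match the STAT pattern (TTC and GAA with 3 or 4 bases between them), at bases -184 to -175:
Il9: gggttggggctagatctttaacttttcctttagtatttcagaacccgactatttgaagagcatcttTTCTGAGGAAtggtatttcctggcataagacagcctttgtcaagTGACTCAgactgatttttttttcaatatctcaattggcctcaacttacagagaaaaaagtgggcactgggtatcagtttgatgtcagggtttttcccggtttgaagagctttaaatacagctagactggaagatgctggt
Searched on both strands, TGACTCA was held by 3.52% of the 5518 compared genes with a promoter of this length in RefSeq, and a STAT pattern by 12%. The NFAT letters GGAAA, common enough to be held by 59.6% of these genes, were found on the other strand of the Il9 window, starting at bases -227, -169 and -49. A match of letters describes the sequence and is not a binding site.

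The 9 Il9 cells made up 16.7% of the 54 cells kept (exact Clopper-Pearson 95% interval 7.92 to 29.3, counting error only). Their Il9 levels ran from 19 TPM in T4_12 over a median of 554 TPM to 9153 TPM in T4_5. T4_5 alone held 64.8% of the Il9 summed over the 9 cells, followed by T5_10 with 2479 TPM. The remaining values were 849 TPM in T4_6, 657 TPM in T4_8, 554 TPM in T3_10, 282 TPM in T2_6, 99 TPM in T3_6 and 40 TPM in T1_1. Just inside the threshold lay T4_12 with 19 TPM, and just outside it T5_4 with 6 TPM and T4_9 and T4_10 with 1 TPM each. Set T4 held 4 of the 9 Il9 cells among its 12 cells, T3 held 2 among 10, and T1, T2 and T5 held 1 each. The labels do not say what the sets stand for, so they were treated as possible batches.

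**Figure D1:**
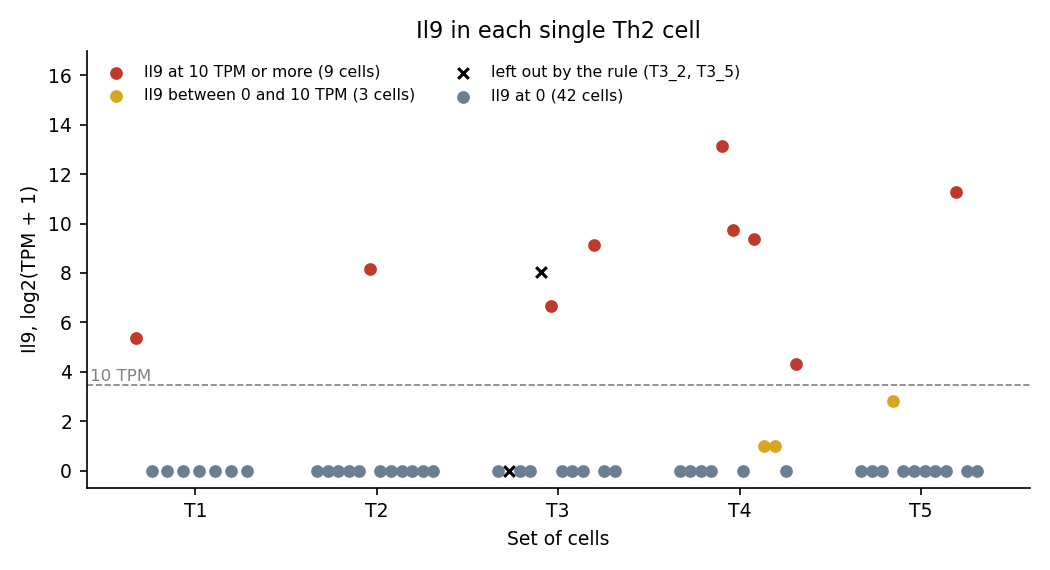
Il9 as log2(TPM + 1) in each of the 56 cells by set, with Il9 cells in red, cells between the thresholds in yellow, cells at 0 in grey-blue and the 2 cells left out as crosses. The Il9 cells span 19 to 9153 TPM, and 4 of the 9 are in set T4.

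Depth is not known from TPM, so the number of genes detected (1 TPM or more) was compared first. Il9 cells had a mean of 5037 genes (SD 442, range 4443 to 5671, n = 9), against 4589 in cells without Il9 (SD 784, range 2679 to 6983, n = 42). The difference of 448 genes is smaller than the SD among the cells without Il9, and the ranges overlap. Within T4 the means were 5149 in Il9 cells and 4076 in cells without Il9, a difference of 1072. The difference was also above 0 in T2 (559), T3 (691) and T5 (441). In T1 it was -613, where the Il9 cell had 4446 genes against a mean of 5059 in the other group. T1, T2 and T5 held 1 Il9 cell each. With values centred by set the difference was 547. The part of the number of genes detected in the differences below was not tested. Values with a straight line on it taken out are given for the main genes and lists.

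Some transcripts that mark T cells and Th2 cells, such as Gata3 and Cd3d, were detected in every cell of both groups. Cd247, another T cell marker, was in 5 of 9 Il9 cells and 39 of 42 cells without Il9. The T cell markers are described as a list further below. Gata3, the lineage factor of Th2 cells, was present in 9 of 9 Il9 cells, averaging 725 TPM (SD 406), and in 42 of 42 cells without Il9, averaging 935 TPM (SD 499.96). Cd3d, a chain of the T cell receptor complex, was in all cells of both groups. It averaged 1545 TPM in Il9 cells (SD 878) and 1290.3 TPM in cells without Il9 (SD 679). Cd4 was detected in 7 of 9 Il9 cells and in 27 of 42 cells without Il9. Mast cells and basophils are other known sources of Il9 or IL-4. Of 13 of their markers, 2 were in the table, Cpa3 and Hdc. Both were at 0 in all 9 Il9 cells, and in cells without Il9 they were detected in 5 and 1 cells. Of 8 markers of type 2 innate lymphoid cells, 3 were listed. Id2 and Il7r were in all 9 Il9 cells, and in 42 and 36 cells without Il9. T cells can express both genes too. Arg1 was in 4 Il9 cells, at 6 TPM or less, and in 4 cells without Il9, at up to 109 TPM. The B cell list rested on Cd74, which was in 6 Il9 cells at up to 135 TPM and in 22 cells without Il9 at up to 672 TPM. Of the CD8 T and NK markers, Cd8b1 was at 0 in both groups and Eomes was at 0 in the Il9 cells. Nkg7, a granule protein, was in 3 of 9 Il9 cells at up to 350 TPM and in 18 of 42 cells without Il9 at up to 5592 TPM. The erythroid Alas2 was at 0 in the Il9 cells. The myeloid list rested on Cd68, a lysosomal protein known from macrophages, which was detected in 5 of 9 Il9 cells at up to 481 TPM and in 3 of 42 cells without Il9 at up to 33 TPM. Cd68 was in too few cells to enter the comparison of genes. Foxp3, the factor of regulatory T cells, was in 3 Il9 cells and in 4 cells without Il9, at 40 TPM or less.

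To describe what else differed in these cells, the mean of log2(TPM + 1) in cells without Il9 was subtracted from that in Il9 cells, for the 7641 other genes detected in at least 10 of the 54 cells. The Il9 cells counted towards these 10, so some genes entered only because of them. Among such genes are Aurkb, Ncaph, Cdt1, Cdc6 and Gzmc, each detected in fewer than 10 cells without Il9. They are included in the counts below. A gene was called higher or lower at a difference of 2 or more in size, which is about 4-fold on this scale and less than the true ratio for low genes. Called higher were 283 genes (3.7% of those compared) and called lower were 95 (1.24%). These shares are the background for the counts of list members below under the main setting. Other settings have their own shares. With genes detected taken out, 1.73% of all genes were higher and 2.24% lower. Without set T4 the shares were 5.5% and 5.3%. With 1 Il9 cell left out, 3.61% to 4.8% of genes were higher. Differences of medians gave 11.7% higher. The median SD of a gene over the cells without Il9 was 2.41 on the same scale, so a difference of 2 is within the spread of single cells for a typical gene. A gene with a mean below 2 in cells without Il9 cannot be called lower, and 3265 genes (42.7%) are in that state. With each Il9 cell left out in turn and values centred by set, 123 of the higher genes (1.61%) and 55 of the lower genes (0.72%) kept their call or, for the centred values, their sign. In no gene did every Il9 cell lie above every cell without Il9, or every one below (0 of 7641 in both directions).

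The balance of higher and lower calls depended on how genes detected and the sets were treated. With genes detected taken out in this way, 132 genes were called higher and 171 lower. Against only the 24 cells without Il9 in the same range of genes detected as the Il9 cells, 216 were higher and 228 lower. Without set T4 the numbers were 385 and 366.

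**Figure D2:**
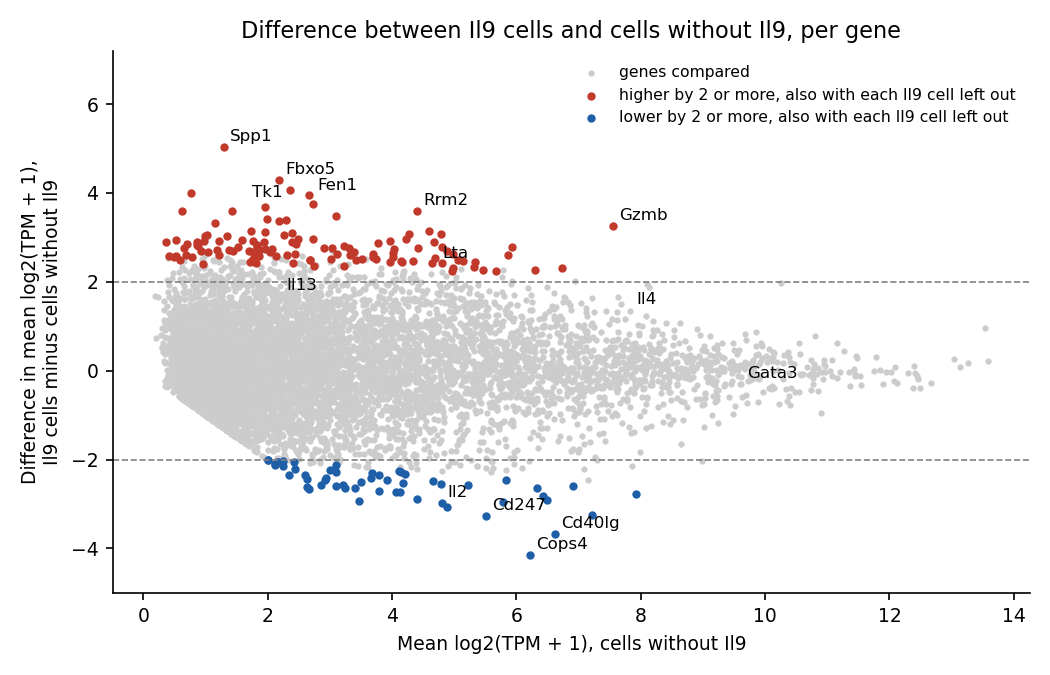
Each point is 1 of the 7641 genes, plotted by its mean log2(TPM + 1) in cells without Il9 (x axis) and by the difference in mean log2(TPM + 1), Il9 cells minus cells without Il9 (y axis), with dashed lines at 2 and -2. Genes that kept a difference of 2 or more with each Il9 cell left out and their sign with values centred by set are red (123 higher) or blue (55 lower), and Spp1 lies highest at 5.03.

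Spp1 had the largest difference of all genes compared. It encodes osteopontin, a secreted phosphoprotein that acts as a cytokine and matrix protein. Spp1 was detected in 9 of 9 Il9 cells, from 1 TPM in T1_1 over a median of 87 TPM to 1411 TPM in T4_12. In cells without Il9 it was detected in 10 of 42, with a median of 0 and a highest value of 1352 TPM. Most cells without Il9 thus had none listed, but the highest among them reached the level of the highest Il9 cells. The difference was 5.03 on the log2(TPM + 1) scale (4.51 to 5.69 with 1 Il9 cell left out). It was 4.40 with values centred by set, 5.02 within T3 and 5.93 within T4, and 4.59 with genes detected taken out. In 89.6% of all pairs of an Il9 cell and a cell without Il9, the Il9 cell had more Spp1. The 3 cells with Il9 between the thresholds had Spp1 at 0, and the 2 cells left out had 95 TPM (T3_5, which held Il9 at 259 TPM) and 61 TPM (T3_2, Il9 at 0).

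The granule protease Gzmb and the TNF family cytokine Lta were also higher. Gzmb ran from 2 TPM over a median of 2946 TPM to 13557 TPM in Il9 cells, against 0, 668 and 22348 TPM in cells without Il9. In Il9 cells 8 of 9 values lay at 2300 TPM or more, with T1_1 as the exception, while 15 of 42 cells without Il9 reached the median of the Il9 cells. The difference of Gzmb was 3.25 (2.89 to 4.40), 2.37 with genes detected taken out, and 1.79, below the threshold, without set T3. Lta, which encodes lymphotoxin alpha, ran from 12 TPM over 393 TPM to 1329 TPM in Il9 cells and from 0 over 45.5 TPM to 1060 TPM in cells without Il9. Its difference was 2.90 (2.55 to 3.38), but 1.51 within T4. Of the 14 compared genes for secreted factors and granule proteins, 3 were called higher (Spp1, Gzmb and Gzmc) and none lower, with a median of 0.92 against 0.11 over all genes. Taking genes detected out gave 2 higher and 1 lower, with a median of 0.39. The granzyme Gzmc was at 2.13, detected in 4 Il9 cells and 8 cells without Il9. Its call is lost without T2_6, T4_5 or T4_12 (lowest 1.32), and reads of the granzyme genes, which are near copies of each other, may be divided between them.

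Genes of DNA replication were prominent among the higher genes. Of the 28 genes on the G1/S list, which serve entry into S phase and DNA synthesis, 10 were called higher (35.7%, against 3.7% of all genes) and 0 lower. The median difference of the list was 1.71, against 0.11 over all genes, and 27 of 28 differences were above 0, against 55.3% over all genes. The flap endonuclease Fen1, which matures lagging strands, was detected in 9 of 9 Il9 cells (lowest 9, median 174, highest 1694 TPM). In cells without Il9 it was detected in 25 of 42 (0, 1.5 and 465 TPM). Its difference was 3.96 (3.45 to 4.38), and 3 cells without Il9 reached the median of the Il9 cells. Rrm2, the regulated subunit of ribonucleotide reductase, had 30, 389 and 2368 TPM as lowest, median and highest values in Il9 cells, against 0, 12.5 and 1359 TPM in cells without Il9. Its difference of 3.59 was 2.90 within T3 and 7.90 within T4.

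Prim1, the catalytic subunit of DNA primase, was in 9 of 9 Il9 cells (1, 339 and 647 TPM) and in 17 of 42 cells without Il9 (0, 0 and 680 TPM). Its difference of 3.74 depended strongly on T4, with 7.55 within that set, -0.73 within T3 and 1.5 without T4. With values centred by set the Prim1 difference was 3.17. The others called on the list were the licensing factor Cdt1 (3.03), the helicase component Cdc45 (2.89), Uhrf1, which maintains DNA methylation (2.73), thymidylate synthase Tyms (2.52), Mcm6 (2.15), the histone mRNA binding protein Slbp (2.12) and Tipin (2.02). Calls of Mcm6, Slbp and Tipin are each lost without 1 of several Il9 cells, with lowest differences of 1.80, 1.78 and 1.73. The 1 member below 0 was Ung, a uracil glycosylase of base repair, at -0.76.

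The mean level of the G1/S list per cell shows the same group by cell. It was 5.00 on the log2(TPM + 1) scale in Il9 cells (SD 1.41, lowest 2.57 in T2_6, highest 6.79 in T5_10) and 3.21 in cells without Il9 (SD 1.60, range 0.46 to 5.93). Of the Il9 cells, 8 of 9 lay above the median of the cells without Il9, and 6 of 42 cells without Il9 lay above the median of the Il9 cells. The difference was not alike in all sets. It was 3.27 in T4 and 3.98 in T5, 0.91 in T1 and 0.66 in T3, and -0.70 in T2, where the Il9 cell had less than the mean of the 11 cells without Il9. With genes detected taken out, 6 of the list's genes were called higher and their median difference was 1.28. It was 1.43 with values centred by set. Without T4 it was 1.27, with 7 of 26 members called higher. With 10 in place of 1 added to TPM it was 1.02, with 3 of 28 called higher (0.2% of all genes). With Il9 cells taken at 1 TPM or more it was 1.03, with 4 of 28 called higher (1.5% of all genes).

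**Figure D3:**
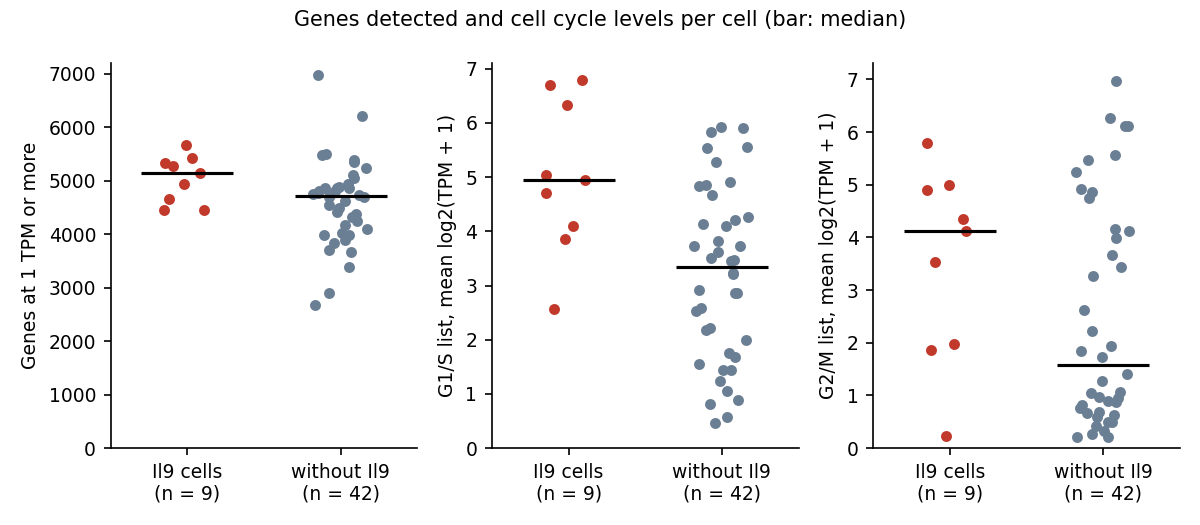
Genes at 1 TPM or more (left), mean log2(TPM + 1) of the G1/S list (middle) and of the G2/M list (right) per cell, for the 9 Il9 cells and the 42 cells without Il9. Points are cells and bars are medians; in the G1/S panel 8 of 9 Il9 cells lie above the median of the cells without Il9, and in all 3 panels the groups overlap.

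Genes of G2 and mitosis were next. Of 29 on the G2/M list, 4 were called higher (13.8%) and 0 lower, with a median of 0.96. They were the chromosomal kinase Aurkb (3.99), the spindle midzone protein Prc1 (2.96), the Aurkb partner Cdca8 (2.45) and the spindle motor Kif11 (2.44). Aurkb was detected in 7 of 9 Il9 cells and in 7 of 42 cells without Il9, with highest values of 481 and 344 TPM. It entered the comparison only because the Il9 cells were counted. The proliferation marker Mki67 was at 1.60 and Top2a at 1.67, below the threshold. Taking genes detected out gave 3 called and a median of 0.52. Differences of medians between the groups gave 17 of 29 at 2 or more (list median 2.32), against 15 of 28 on the G1/S list (2.25). By this measure 11.7% of all genes were at 2 or more. The order of the lists thus depends on the measure. The count of 4 rests in part on single cells. Without T4_6, in which only 2 members were detected, it was 10 with a median of 1.57, without T4_12 it was 8, and without T3_10 it was 6. Other settings gave fewer. With 10 in place of 1 added to TPM it was 1 (median 0.48, 0.2% of all genes called higher). With Il9 cells taken at 1 TPM or more it was 1 (0.54, 1.5%). Against cells without Il9 in the same range of genes detected it was 2 (0.36, 2.83%). Over the 27 alternatives the count ran from 1 to 17. Cdca8 lost its call without T3_6, T4_8 or T5_10 (lowest 1.94) and Kif11 without T1_1 (1.97). The level of the G2/M list per cell was 3.53 on average in Il9 cells (SD 1.81, median 4.12, range 0.23 to 5.80) and 2.49 in cells without Il9 (SD 2.12, median 1.57, range 0.21 to 6.97). The medians of the G1/S level were 4.95 in Il9 cells and 3.34 in cells without Il9.

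The 15 higher genes named by size contained further proteins with roles in cell division. Fbxo5, an inhibitor of the anaphase-promoting complex, had a difference of 4.28. It was in 8 of 9 Il9 cells (median 128 TPM, highest 2295 TPM) and 18 of 42 cells without Il9 (median 0, highest 485 TPM). Tk1, thymidine kinase of the salvage pathway, was at 4.06, with medians of 242 TPM in Il9 cells and 0 in cells without Il9. The others were the spindle protein Tacc3 (3.69), Shcbp1 (3.59), the condensin subunit Ncaph (3.58), the mitotic kinase Pbk (3.40), the kinetochore component Fam33a (3.38), and the recombination protein Rad54b (3.32). Ncaph was in 7 of 9 Il9 cells and 7 of 42 cells without Il9, with highest values of 813 and 133 TPM. Like Aurkb, Ncaph entered the comparison only because the Il9 cells were counted. Rdbp, a subunit of the elongation factor NELF, was at 3.49 and the endoplasmic reticulum ATPase Tor1a at 3.38. Of these 15 genes, 4 belong to the G1/S or G2/M lists. Exons of Spp1, Tk1, Fen1, Tacc3 and Rad54b overlap those of other annotated genes. On the same strand these were Gm42793 for Spp1 and Fsbp for Rad54b. For Rdbp and Fam33a overlap was not determined. The sources used here do not state whether counting used strand, and for these same-strand overlaps of Spp1 and Rad54b strand would not separate the reads.

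**Figure D4:**
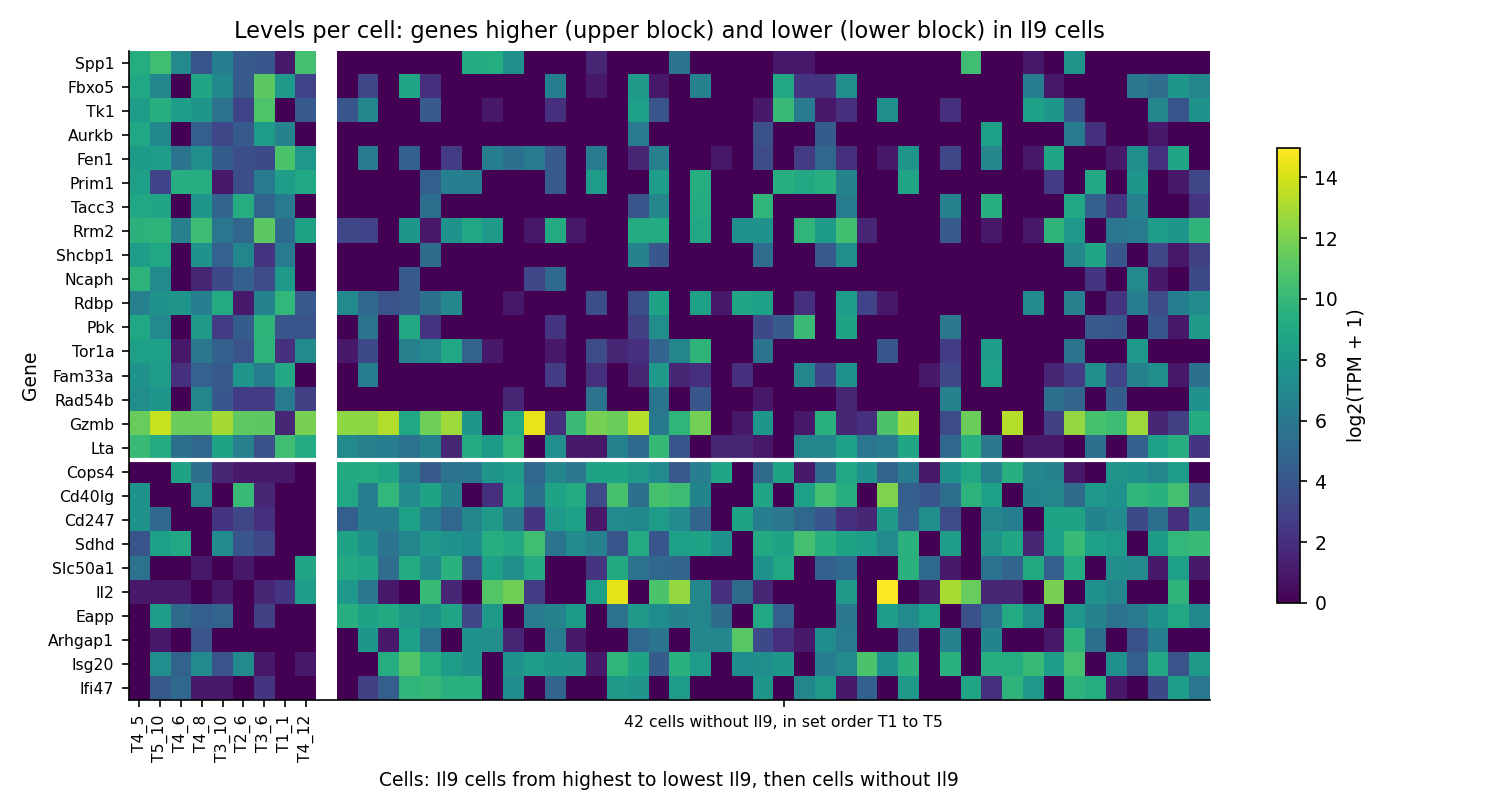
Level of 27 genes as log2(TPM + 1) (colour) in the 9 Il9 cells, ordered from highest to lowest Il9 (left), and in the 42 cells without Il9 (right). The upper block holds the 15 named higher genes with Gzmb and Lta and the lower block the 10 named lower genes; Spp1 is present in 9 of 9 Il9 cells and 10 of 42 cells without Il9, and Arhgap1 in 2 and 27.

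E2F factors are known to drive genes of the G1/S list, so the 250 bases before the start of these genes were searched on both strands for the letters TTTCCCGC or TTTGGCGC. Of 21 G1/S genes with a RefSeq promoter (GRCm38.p6), 6 held them (28.6%), against 3.32% of the 5518 compared genes with a promoter. The 6 windows of 40 bases are shown with these letters in capitals:
Mcm5: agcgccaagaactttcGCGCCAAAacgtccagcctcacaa
Mcm6: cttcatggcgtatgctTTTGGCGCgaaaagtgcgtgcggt
Mcm7: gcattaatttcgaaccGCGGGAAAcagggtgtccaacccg
Cdc6: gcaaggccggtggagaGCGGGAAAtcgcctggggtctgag
Pola1: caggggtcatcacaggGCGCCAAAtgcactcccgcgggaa
Hells: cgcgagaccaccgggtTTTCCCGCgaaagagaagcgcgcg
They lie at chr8:75109344-75109383 (plus strand), chr1:128359792-128359831 (minus), chr5:138172025-138172064 (minus), chr11:98907997-98908036 (plus), chrX:93632270-93632309 (minus) and chr19:38930912-38930951 (plus). In the same order, the differences were 2.00 for Mcm5 (just under the threshold before rounding), 2.15 for Mcm6, 0.75 for Mcm7, 1.32 for Cdc6, 1.68 for Pola1 and 1.30 for Hells. Among all genes called higher, 9 of 210 with a promoter held the letters (4.29%), and among those called lower 3 of 73 (4.11%), both near the 3.32% of all genes. The STAT pattern was held by 40 of 210 higher genes (19%) and 7 of 73 lower genes (9.59%), against 12% of all. The GATA letters (GATA with A or T before and A or G after) ran the other way, in 27 of 210 higher genes (12.9%) and 21 of 73 lower genes (28.8%), against 19.1% of all. CCAAT was in 44.3% of the higher and 30.1% of the lower genes, against 40.4% of all, and GGAAA in 63.8% and 53.4%, against 59.6%. The mitotic CHR letters TTTGAA were in 16.2% and 9.59%, against 13.1%. TGACTCA was in 3.81% and 4.11%, against 3.52%, and an IRF pattern in 2.38% and 2.74%, against 3.26%. These shares describe letters in these windows.

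Among the lower genes was Cd40lg, the ligand through which helper T cells activate B cells. It was detected in 4 of 9 Il9 cells (median 0, highest 1093 TPM), against 36 of 42 cells without Il9 (median 176 TPM, highest 4306 TPM). Its difference was -3.67 (-4.57 to -3.31), with -3.86 within T3 and -3.68 within T4. Il2, the T cell growth factor, was in 7 of 9 Il9 cells but at 4 TPM or less in 8 of the 9, with 329 TPM in T4_12. In cells without Il9 it was detected in 27 of 42 (median 2.5 TPM, highest 31888 TPM). The medians of both groups were thus low, with a difference of -0.79 between them, and the difference of means, -2.99, came from cells without Il9 that had high Il2. It was -0.81 within T3 and -4.42 within T4. Cd247, the zeta chain of the T cell receptor complex, was in 5 of 9 Il9 cells (median 3 TPM) and 39 of 42 cells without Il9 (median 85.0 TPM), with a difference of -3.27. The other chains of the complex were not called, with Cd3d at 0.29, Cd3g at -0.03 and Cd3e at -0.66. The exons of Cd247 overlap those of Gm16565 on the same strand and those of Pou2f1 on the other strand.

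Cops4, a subunit of the COP9 signalosome that removes NEDD8 from ubiquitin ligases, had the lowest difference, -4.15. It was in 6 of 9 Il9 cells, in 4 of them at 2 TPM or less (median over the 9 cells 1 TPM, highest 387 TPM). In cells without Il9 it was in 39 of 42 (median 119.5 TPM, highest 697 TPM). The remaining named lower genes were Sdhd, the membrane anchor of succinate dehydrogenase (-3.25), the sugar transporter Slc50a1 (-3.07), Eapp (-2.96), Arhgap1, a GTPase-activating protein (-2.94), and the interferon-induced Isg20 (-2.91) and Ifi47 (-2.90). Arhgap1 was detected in 2 of 9 Il9 cells and 27 of 42 cells without Il9. Of the 15 interferon response genes compared, 2 were called lower (Isg20 and Ifi47) and 0 higher, and the median was -0.25. The exons of Ifi47 overlap those of Olfr56 on the same strand and those of Gm12188 on the other strand.

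Of the 30 activation genes compared, 3 were called lower (Cd40lg, Il2 and the transcriptional repressor Zbtb32 at -2.23) and Lta was called higher. The list's median was -0.35. Zbtb32 lost its call without T1_1, T2_6, T3_6, T4_5 or T5_10 (nearest to 0 at -1.78). Ctla4, an inhibitory receptor, was at -1.49 and the costimulatory receptor Icos at -1.42, while Nr4a2 was at 1.62 and Myc at 1.43. Of 13 T cell identity genes, Cd247 was called lower and none higher. Of the 13, 8 were below 0 and 5 above (median -0.45), with the kinase Zap70 at -1.94, Cd4 at -0.65 and Lck at 1.32.

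**Figure D5:**
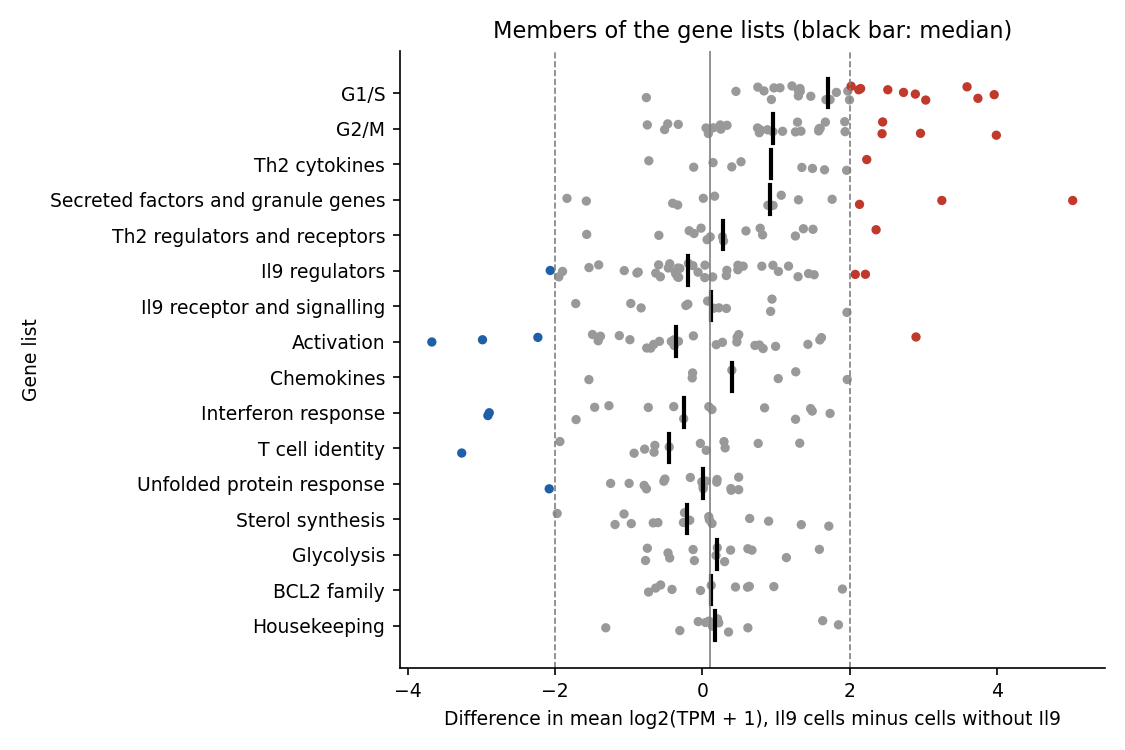
Difference in mean log2(TPM + 1), Il9 cells minus cells without Il9 (x axis), for each compared member of 16 gene lists (rows), with black bars at the list medians, a grey line at the median of all genes (0.11) and dashed lines at 2 and -2. Members called higher are red and members called lower blue; the G1/S list has 10 red members and a median of 1.71.

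The cytokines made by Th2 cells were mostly at like or higher levels in Il9 cells. Of 10 compared, 1 was called higher and 0 lower, 8 were above 0, and the median was 0.94. The called one was Il13, which acts on epithelium and mucus. It was in 7 of 9 Il9 cells (median 14 TPM, highest 536 TPM) and in 21 of 42 cells without Il9 (median 0.5 TPM, highest 484 TPM). Its difference of 2.23 fell below 2 without T2_6, T4_8, T4_12 or T5_10 (lowest 1.65), was 1.72 with genes detected taken out, and 1.29 without T4. The median of the cytokine list was 0.22 with genes detected taken out. The growth factor Csf2, next to Il3 in the genome, was in 9 of 9 Il9 cells, all at 291 TPM or more (median 1174 TPM), and in 41 cells without Il9 (median 215.5 TPM, highest 52207 TPM). Its difference was 1.96, just under the threshold, although the mean TPM was lower in Il9 cells, at 1310 TPM against 3471 TPM.

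Il4, the defining Th2 cytokine, had a difference of 1.35, with 26918 TPM in T2_6 and medians of 406 TPM in Il9 cells and 333.5 TPM in cells without Il9. For the anti-inflammatory Il10 the difference was 1.66 (medians 854 and 607 TPM), for Il3 1.49 (695 and 63.0 TPM), for the epidermal growth factor family member Areg 0.52 and for Il24 0.14. The eosinophil growth factor Il5 was detected in 2 of 9 Il9 cells, T3_10 with 3538 TPM and T4_12 with 338 TPM, and in 9 of 42 cells without Il9 (difference 0.40). The itch cytokine Il31 was in 3 of 9 and 17 of 42 cells (-0.73), and Il6 in 2 of 9 and 10 of 42 (-0.12). Of these cytokines none besides Il13 passed the threshold. Among 7 chemokines, none was called in either direction, and Ccl1, a ligand of CCR8, came nearest at 1.97.

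Known regulators of Il9 did not move together. Of 39 compared, 2 were called higher (5.13%, against 3.7% of all genes) and 1 lower, with a median of -0.19. With genes detected taken out, 0 were called higher and 3 lower, with a median of -0.34. Called higher were Etv5, an ETS factor reported to act on Il9 in mouse Th9 cells, at 2.21 (6 of 9 Il9 cells, 11 of 42 cells without Il9) and the aryl hydrocarbon receptor Ahr at 2.08 (7 of 9 and 17 of 42). Called lower was Maf, an activator of Il4, at -2.07 (5 of 9 and 29 of 42). None of the 3 kept its call with each Il9 cell left out. Etv5 fell below 2 without T3_6, T4_6 or T4_8. Ahr did so without T2_6, T3_10, T4_5, T4_6 or T4_12, and Maf came within 2 of 0 without T2_6, T3_6, T3_10, T4_5 or T5_10. The values nearest to 0 were 1.64, 1.61 and -1.70.

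Stat6, which carries the signal of IL-4, was at -1.95, with medians of 11 TPM in Il9 cells and 53 TPM in cells without Il9. The AP-1 factor Batf was at 1.17 (medians 588 and 289 TPM) and Irf4 at 0.81 (246 and 70.5 TPM), each present in all 9 Il9 cells. Other regulators over 1 in size were Runx1 (-1.90), Pparg (-1.54), Jun (-1.41) and Nfatc2 (-1.06), and Runx3 (1.52), Stat5b (1.44), Notch2 (1.30) and Ets1 (1.03). Gata3 was at -0.31. Of 12 compared genes for Il9 receptor signalling, none was called. The survival kinase Pim2 (1.96) and the STAT5 target Socs2 (-1.72) lay farthest from 0. The receptor gene Il9r and Spi1, which encodes PU.1, were not analysed here.

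Among Th2 regulators and receptors, 1 of 16 was called higher, the cyclic AMP responsive factor Crem at 2.36 (2.05 to 2.99), and 0 lower (median 0.28). Neither with genes detected taken out nor with values centred by set was any member called, Crem being at 1.80 in the centred values, and the list medians were -0.08 and 0.38. Without T4 the median was -0.62. Of the unfolded protein response genes, Xbp1, a factor of secretory cells, was the 1 of 19 called, at -2.08, and it lost the call without T2_6, T3_6, T3_10 or T4_5. No member was called in either direction among 14 glycolysis genes (median 0.19), 16 sterol synthesis genes (-0.21), 11 BCL2 family genes (0.12), 14 housekeeping genes (0.17) and the 4 regulatory T cell genes that entered (0.43). The housekeeping genes Tbp and Sdha, both listed at 0 in many cells, were at 0.14 and -1.31.

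The genes whose levels followed Il9 most closely over the 54 cells were taken by Spearman's rank correlation, as a description with no p. The highest values were 0.53 for the aminopeptidase Rnpep, 0.51 for Scoc, 0.50 for 3110056O03Rik, 4931406P16Rik, Rad54b, Spp1 and Esco2, the cohesin acetyltransferase of S phase, and 0.49 for Gm12942, Zdhhc7 and 4930431P03Rik. Over all genes the median was 0.02 and the range -0.44 to 0.53. As Il9 was at 0 in 42 of the 54 cells, these values are not independent of the division into groups. The cells share the library procedure, and their number of genes detected differs.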

How the data were processed

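Single cells were compared within 1 table. Per the labels, the deposited file holds TPM, and its whole-number values with column sums of 999202 to 999914 show a score that the authors had rounded. The submitters' processing notes name the mm9 build, FastQC, Bowtie 0.12.2 and Cufflinks. TPM keeps no depth, so no count model or depth correction was possible and the depth per cell is unknown; 55.8% of values were 0, and a 0 can be a lost transcript. Among the 1431 pairs of kept cells, 0 held identical values.

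Differences of mean log2(TPM + 1) were computed in Python 3.11.15 with pandas 2.3.3 and numpy 2.4.6, with a pseudocount of 1, and the procedure was tested on simulated data. A gene needed 1 TPM or more in at least 10 cells, Il9 cells included. The cells are 1 sample, so no p-value was made. Groups were chosen by their Il9 level. The division, the 23 gene lists and the rules were chosen with earlier results of these data known. Named were the 15 higher and 10 lower genes with the largest differences that kept 2 or more with each Il9 cell left out and their sign with values centred by set, the members called or over 1 in size on the cytokine, Il9 regulator and Il9 signalling lists, up to 4 members of each other list, and the 10 genes most like Il9. Further called or near-threshold members of the lists, and markers of other cell types, were named after their values were seen. Symbols were compared with GRCm38.p6: 9501 were current, 949 older and 115 unmatched. The pool of 10000 cells was left out, as it cannot be divided by Il9.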

Additional observations from a re-analysis of the deposited data

Results flagged for a closer look

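In 3 of 31 measures over the 9 Il9 cells, 1 cell lay far from the others by Dixon's criterion, which sets the gap to the nearest cell against the whole range. Chance alone flags about 1 in 20 groups of normally distributed values. Many values here were at or near 0 and most genes were chosen for their differences, so this rate may not apply. Gzmb in T1_1 stood at 1.58 on the log2(TPM + 1) scale, against a median of 11.5 (gap 0.789 of the range). Il2 in T4_12 stood at 8.37, against a median of 1 (0.722). Arhgap1 in T4_8 stood at 3.81, against a median of 0 (0.737). Outside the comparison, cell T3_5, which was left out, held Il9 at 259 TPM.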

How the results depend on the processing

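Of 28 genes followed (the 25 named by size with Gzmb, Lta and Il13), all kept their direction in the 750 values computed under 27 alternatives, and 712 of these stayed at 2 or more in size. The 25 had been chosen for keeping their call with each Il9 cell left out and their sign with values centred by set. Those settings are among the 27 alternatives, so this agreement was in part fixed by the choice of genes. With the pseudocount at 10, 15 genes were higher and 7 lower by 2 or more. With Il9 cells taken at 1 TPM or more the numbers were 115 and 63, and at 100 TPM or more (6 cells) 573 were higher. Lower genes numbered 31 with T3_2 and T3_5 kept, 63 with values centred by set, 144 without set T3 and 366 without set T4. With genes detected taken out, 132 were higher and 171 lower, and in the same range of genes detected 228 were lower. Differences of medians gave 897 and 335. Leaving out each Il9 cell gave 273 to 365 higher and 89 to 140 lower genes, and the difference in genes detected stayed between 369 and 522. An alternative added after the data were seen took out a straight line on the mean level of the G1/S list, a list chosen with results known. Then 106 genes were higher, Spp1 was at 4.24 and Gzmb at 3.58. Rrm2, itself a member of that list, was at 0.76, and its own level is part of what was taken out. The cause of these shifts was not tested. No paired analysis was possible because no label pairs the cells. Unknown depth limits how far a value of 0 can be read.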
